A study of Mus musculus with 13 samples.

Results

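FOXL2 regions gained with activin are stretches of the mouse genome where a FOXL2 peak was called in both libraries of activin-treated cells and in neither library of vehicle-treated cells. To find them, the peaks of the 4 FOXL2 lists were merged wherever they shared at least 1 bp, which gave 124781 regions. Of these, 11173 (8.95%) were gained. The opposite pattern, a peak in both vehicle libraries and in neither activin library (vehicle-only regions), held for 4021 regions, or 3.22%. A peak in all 4 lists was found in 58444 regions, called constant below. Gained is a statement about which lists hold a peak and not about a measured change in signal, because the lists give no values where no peak was called. Binding in fewer cells and weaker binding in each cell cannot be told apart in such lists.

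The cells were LβT2, a single mouse pituitary line of the gonadotrope type, stably transduced by lentivirus with a doxycycline-inducible FLAG-tagged mouse FOXL2, which the vehicle cells carried too. The antibody against the FLAG tag therefore read the introduced FOXL2 protein and not the cells' own. All cultures recovered for 24 h, received doxycycline for 48 h and were kept for 2 h in medium with 2% serum. For 1 h they were then held with vehicle alone or with 1 nM activin A, and were cross-linked with 1% formaldehyde. Each treatment had 2 samples, each pooled from 3 plates. FLAG-FOXL2, SMAD2/3 and acetylated lysine 27 of histone H3 (H3K27ac) were precipitated from 2 samples per treatment. The library names repeat the same letter across the 3 antibodies, which may mark a shared chromatin sample, though the labels do not say so. Nothing in the labels says that the samples were separate experiments, so differences between treatments are set against a spread that may be technical. As a check of the cell type, H3K27ac peaks lay at Cga, Lhb, Gnrhr, Nr5a1, Pitx1 and Egr1, genes active in gonadotropes, in all 4 H3K27ac lists. There was none at Fshb in any list, and none at 6 genes of other pituitary cells (Gh, Prl, Pomc, Tshb, Pou1f1 and Tbx19), looking over each gene and 1 kb around it. The study asked how transcription of Fshb, the gene of the follicle-stimulating hormone β subunit, is controlled through enhancers.

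FOXL2 is a forkhead transcription factor that binds DNA directly and is needed in gonadotropes for normal Fshb expression. Activin binds serine/threonine kinase receptors at the cell surface, which phosphorylate SMAD2 and SMAD3. These then enter the nucleus with SMAD4 and bind short DNA elements, often beside other factors such as FOXL2. H3K27ac is a histone mark found at active promoters and enhancers.

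Sequencing depth is unknown, since the files hold peaks and no reads. In the FOXL2 lists of vehicle cells stood 86401 peaks (replicate 1) and 83834 (replicate 2), and in those of activin cells 97701 and 94006. The activin lists were thus longer, and a longer list alone can add regions of the gained pattern. Cut to equal length, the 4 lists gave 7888 gained regions, and the part of list length in the remainder was not tested. Leaving out a FOXL2 library drops its part of the rule, and this moved the number further. It was 18536 without vehicle replicate 1, 14391 without vehicle replicate 2, 17547 without activin replicate 1 and 20892 without activin replicate 2.

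Most gained regions lay far from promoters, and sequence was available for the few whose FOXL2 summit fell in a promoter window of RefSeq (GRCm38.p6), from 250 bases before to 50 bases after a gene's start. There were 33 such regions in 34 windows, because 1 region lay between the divergent genes Zfp607b and Map3k10. The windows below are those of the 5 highest-ranked regions whose summit lay before the start. They are shown because they are the strongest gained peaks that lay before the start of a gene with a sequence at hand. Each is 150 bases long and is written 5′ to 3′ on the strand of the gene. Capitals mark words found on either strand. The full forkhead word is TGTTTAC or, in a second form of the same motif, TGTTTGC. The short forkhead word is TAAACA. The word bound by SMAD proteins is CAGAC. The short word TAAACA lies within the reverse complement of TGTTTAC, so such a site counts under both.
Gm13570: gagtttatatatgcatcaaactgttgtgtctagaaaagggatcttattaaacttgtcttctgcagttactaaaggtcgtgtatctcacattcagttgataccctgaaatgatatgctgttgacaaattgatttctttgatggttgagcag
1700007K13Rik: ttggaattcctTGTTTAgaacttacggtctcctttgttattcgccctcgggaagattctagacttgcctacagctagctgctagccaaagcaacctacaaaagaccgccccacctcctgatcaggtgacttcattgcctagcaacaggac
Gm46108: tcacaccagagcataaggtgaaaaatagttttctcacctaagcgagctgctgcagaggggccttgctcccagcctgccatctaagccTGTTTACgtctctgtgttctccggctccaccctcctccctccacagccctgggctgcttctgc
4930488N24Rik: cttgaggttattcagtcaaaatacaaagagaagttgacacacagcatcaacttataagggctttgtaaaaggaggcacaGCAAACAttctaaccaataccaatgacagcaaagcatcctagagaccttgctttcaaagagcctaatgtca
LOC102636024: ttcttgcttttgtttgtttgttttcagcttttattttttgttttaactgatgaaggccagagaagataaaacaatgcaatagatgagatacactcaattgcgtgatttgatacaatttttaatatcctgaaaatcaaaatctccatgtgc

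The Gm13570 window, at chr2:60098836-60098985 on the minus strand, held none of these words, and its peak had a fold enrichment of 7.53 in activin replicate 1 and 8.23 in activin replicate 2. The 1700007K13Rik window, at chr2:28466325-28466474 on the minus strand, held a short forkhead word 139 bases before the start, with the FOXL2 summit 70 bases before it. Gm46108 lay at chr9:43781379-43781528 on the minus strand, and its full forkhead word began 82 bases before the start, 12 bases from the summit at 94 bases before it. At Gm46108 an H3K27ac peak was also called over the region in both activin lists (fold 3.26 and 3.36) and in neither vehicle list. The 4930488N24Rik window, at chr17:14109246-14109395 on the minus strand, held a forkhead word that began 171 bases before the start. The window of LOC102636024, at chr2:138475482-138475631 on the plus strand, held none. A word is a match of letters in a window and not a shown binding site.

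Across all 34 windows, full length and both strands, TGTTTAC or TGTTTGC occurred in 14.7% (95% Wilson interval 6.45 to 30.1), against 21.0% of 415 windows at constant regions and 8.48% of all 32851 RefSeq windows. TAAACA occurred in 26.5% (14.6 to 43.1) of the gained windows, 40.2% of the constant windows and 13.4% of all windows. CATTTGT, a word taken as a control of composition, occurred in 2.94%, 6.02% and 4.05%. CAGAC was in 29.4% (16.8 to 46.2) of the gained windows, in 48.4% of the constant windows and in 49.6% of all windows. The AP-1 word TGANTCA was in 11.8%, 6.02% and 7.81%. With 34 windows the intervals of the gained windows took in the constant shares of both forkhead words and of TGANTCA. For CAGAC the constant share lay just above the interval. The interval of the full forkhead word also took in the 8.48% of all windows, so no excess of that word is shown. In 43 windows at vehicle-only regions the full forkhead word, TAAACA and CAGAC occurred in 11.6%, 18.6% and 51.2%. Median GC content was 56.7% in gained and 52% in constant windows, and its part was not tested. Intervals here and below cover counting error only, and neighbouring regions are not independent. None of the 33 promoter regions had a SMAD2/3 peak in both activin lists, which says little where 3.14% of all gained regions lay at activin SMAD2/3 regions. Of the 33, 19 had an H3K27ac peak in all 4 lists and 11 had none in any. Over all gained regions these patterns held for 5.58% and 85.8%. The 33 were not compared with other promoter regions, so the counts show no trait of gained promoters.

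Gained FOXL2 peaks were narrow and of low to middle strength, as were those of vehicle-only regions. The values of the FOXL2 lists chose these regions, so their strength is given as a description with no test. The median gained region was 284 bp wide, against 465 bp for constant and 263 bp for vehicle-only regions. Median fold enrichment, the authors' ratio of signal over background, was 5.23 and 5.06 in the 2 activin lists, against 9.39 and 8.92 at constant regions. Vehicle-only regions had 4.60 and 4.40 in the vehicle lists. What served as the background of these folds is not given in the sources used here. Peaks were also ranked in each list by −log10 q, from 0 to 100 for the strongest. The median gained region stood at 32.2 and 28.2, and the median constant region at 68.1 and 67.0. The median vehicle-only region stood at 21.3 and 24.6 in the vehicle lists. Mean ranks reached 50 in 2004 gained regions, 75 in 159 and 90 in 6. The strongest peak summits of a gained region in the 2 activin lists lay a median of 29 bp apart, against 20 bp at constant regions.

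**Figure D1:**
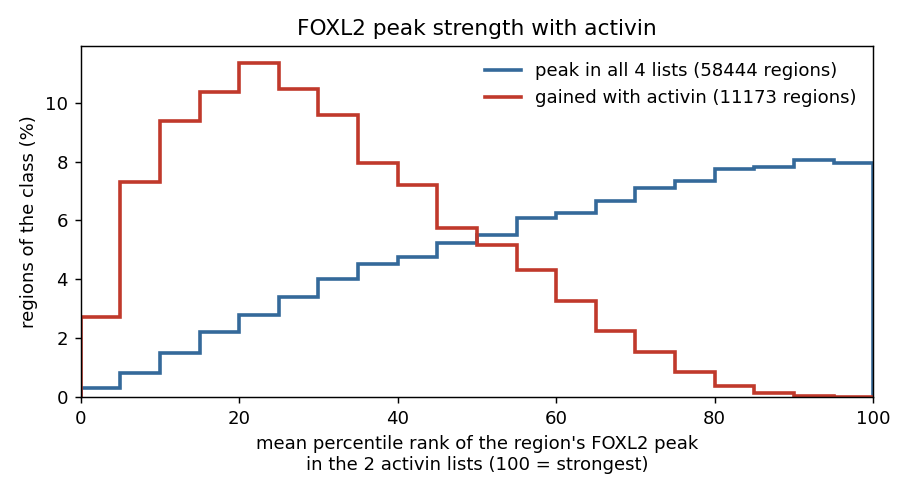
Distribution of FOXL2 peak strength. The x axis is a region's mean percentile rank in the 2 activin FOXL2 lists and the y axis is the percentage of the regions of each class per 5-point bin. Lines show the 11173 gained and the 58444 constant regions. Gained regions crowd at ranks under 50, and 159 of them reach 75.

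At the edge of the rule, the weakest member had a −log10 q of 1.39 in activin replicate 1 and 1.32 in activin replicate 2. Values under 2 occurred in 94 and 107 members. Just outside the rule stood 7276 regions with peaks in both activin lists and vehicle replicate 1 alone, and 3180 with vehicle replicate 2 alone. In these the vehicle peak had a median fold of 5.11 and 4.47, and 48 and 42 of them had a vehicle −log10 q under 2. Regions with a peak in activin replicate 1 alone numbered 9503 and those in activin replicate 2 alone 6013.

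Gained regions were more often intergenic than constant ones. By the deposited annotation, 50.7% lay in introns and 40.0% (39.1 to 40.9) between genes, against 33.7% between genes for constant and 36.2% for vehicle-only regions. The promoter class held 334 gained regions, 2.99% (2.69 to 3.32), against 3.65% of constant, 4.10% of vehicle-only and 4.64% of all FOXL2 regions. The promoter share was 4.22% without vehicle replicate 2 and 4.77% without activin replicate 1, and the constant share was not recomputed without them. The intergenic difference from constant regions was larger than counting error and was not tested over samples. The median distance to the nearest gene start was 24.8 kb for gained, 23.1 kb for constant and 21.4 kb for vehicle-only regions. By chromosome, the gained share of FOXL2 regions ran from 7.96% on chromosome 11 to 9.78% on chromosome X, so every chromosome lay near the 8.95% of the genome as a whole.

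The gained regions lay in the neighbourhood of constant FOXL2 regions more than of each other, though constant regions are also far more numerous. The median gap from a gained to the nearest constant region was 6.68 kb, and 59.5% had one within 10 kb. Constant regions had another constant region at a median of 4.36 kb, and vehicle-only regions at 5.08 kb. The nearest other gained region lay at a median of 39.0 kb, close to the median of 38.0 kb from a constant region to its nearest gained region. The nearest region with an H3K27ac peak in both activin lists was a median of 23.3 kb from a gained region, against 15.0 kb from a constant and 12.7 kb from a vehicle-only region. For SMAD2/3 regions of the activin lists the gaps were 112.5, 90.1 and 110.5 kb. Gained regions thus lay farther from acetylated chromatin than either other class, as a description with no test over samples.

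SMAD2/3 carries the activin signal to the nucleus, and its peaks were not used to choose the gained regions. A SMAD2/3 peak overlapped 4 gained regions in vehicle replicate 1 and 1 in vehicle replicate 2. It overlapped 529 in activin replicate 1 and 420 in activin replicate 2. The shares of gained regions were 0.0358%, 0.00895%, 4.73% and 3.76%, so the treatments did not overlap. The difference of 4.22 percentage points had an exact two-sided permutation p of 0.333, the smallest that 2 against 2 libraries can give. The SMAD2/3 lists themselves held 605, 144, 7784 and 5970 peaks, and 54% of the 8602 merged SMAD2/3 regions had a peak in both activin lists and neither vehicle list. The shares at gained regions are to be read against those list lengths, since constant FOXL2 regions went from 0.844% and 0.228% to 8.61% and 6.82% in the same libraries.

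Few gained regions were SMAD2/3 sites. Above rank 25 they were SMAD2/3 sites more often than constant regions of like FOXL2 rank, and below it, where 4597 of the 11173 gained regions stood, they were not. Merged SMAD2/3 regions with a peak in both activin lists overlapped 351 gained regions, 3.14% (2.83 to 3.48), against 6.16% of constant, 1.02% of vehicle-only and 3.63% of all FOXL2 regions. The share was 2.02% without activin FOXL2 replicate 2. A SMAD2/3 peak of its own in each activin list was found at 349 gained regions. Split by mean FOXL2 rank, the share with both peaks was 1.35% in gained and 1.59% in constant regions ranked under 25, and their intervals overlapped. Between ranks 25 and 50 it was 2.87% in gained and 2.07% in constant regions. Between 50 and 75 it was 6.67% (5.62 to 7.90) against 3.29% (3.04 to 3.56), and above 75 it was 20.8% (15.2 to 27.7, of 159 regions) against 11.7% (11.3 to 12.1). The difference in the top 3 rank classes was larger than counting error and was not tested over samples. FOXL2 rank and SMAD2/3 peaks may have been read from the same chromatin samples, and the part of such sharing was not tested.

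**Figure D2:**
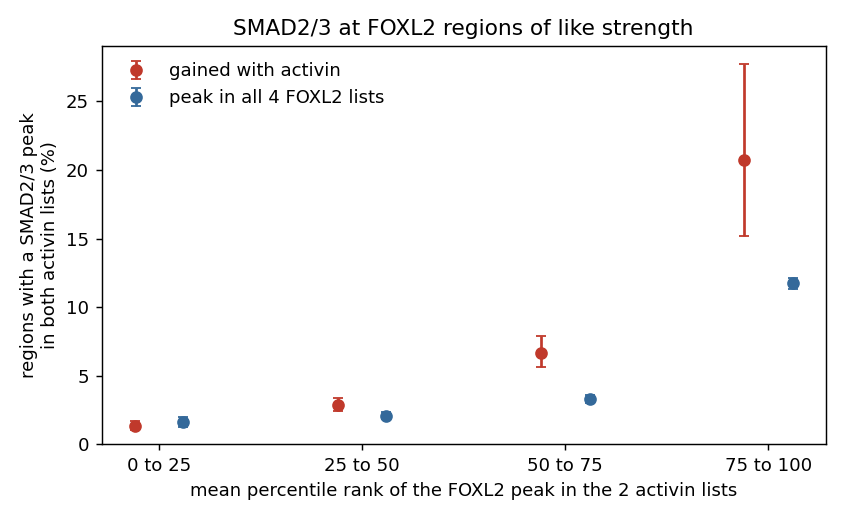
SMAD2/3 at gained and constant FOXL2 regions of like strength. The x axis gives classes of mean percentile rank in the activin FOXL2 lists, the y axis the percentage of regions with a SMAD2/3 peak in both activin lists, and bars are 95% Wilson intervals. Above rank 75 the share is 20.8% for gained and 11.7% for constant regions, while under 25 the intervals overlap.

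At the 349 gained regions with SMAD2/3, the SMAD2/3 peak was about as strong as at the 3608 constant regions with SMAD2/3. Its median fold was 6.71 and 6.25 in the 2 activin lists, against 6.60 and 6.12 at the constant regions, and its median rank was 63.7 and 56.2 against 69.1 and 60.1. The FOXL2 peaks differed more, with median ranks of 47.4 and 48.2 at the gained and 89.5 and 89.8 at the constant regions. The summits of both factors coincided closely. The median distance was 26 and 29 bp at gained and 28 and 30 bp at constant regions, and 93.4% and 91.4% of gained regions had the summits within 100 bp. A vehicle SMAD2/3 peak was present at 5 of the gained regions (1.43%) and at 469 of the constant ones (13.0%).

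H3K27ac was also no part of the rule. It and FOXL2 may still have been read from the same chromatin samples, and the part of such sharing was not tested. The share of gained regions with an H3K27ac peak was higher with activin, with both replicates above both vehicle replicates. Of the 11173 gained regions, 862 and 848 overlapped an H3K27ac peak in the vehicle lists and 1360 and 1112 in the activin lists. The vehicle shares were 7.72% and 7.59% and the activin shares 12.2% and 9.95%, with no overlap between treatments. Vehicle libraries averaged 7.65% ± 0.0886 (SD, n = 2) and activin libraries 11.1% ± 1.57 (SD, n = 2), which is 3.41 percentage points more. Its exact two-sided permutation p was 0.333, the smallest possible. At constant regions the vehicle shares were 22.5% and 21.7% and the activin shares 22.6% and 19.6%, which overlap. At vehicle-only regions the vehicle libraries had 26.0% and 25.9% and the activin libraries 20.4% and 18.5%. Gained regions thus carried H3K27ac less often than constant ones in every library.

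Taken within each library, the gained share minus the constant share was −14.8 and −14.1 percentage points for vehicle and −10.5 and −9.66 for activin. With activin this gap was 4.41 points smaller (exact two-sided permutation p of 0.333), and 2.55 points smaller for H3K27ac peaks with a −log10 q of at least 5. Gained regions are narrower than constant ones, and counted at the FOXL2 summit base the gap was −9.02 and −8.51 points for vehicle, −6.00 and −5.06 for activin. The overlap difference of 3.41 points at gained regions was smaller under some settings. It was 2.12 points when an H3K27ac peak had to cover at least 50% of the region, 1.99 when it had to cover the FOXL2 summit base, 1.65 for H3K27ac peaks with a −log10 q of at least 5, and 2.09 at gained regions without any SMAD2/3 peak. The H3K27ac lists covered 50.4, 49.2, 51.8 and 43.6 Mb, so the lower share in activin replicate 2 moved with a smaller covered length, whose part was not tested.

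By pattern, 261 gained regions (2.34%) had an H3K27ac peak in both activin lists and neither vehicle list, and 40 (0.358%) had the reverse. Over all FOXL2 regions these patterns held for 1.54% and 1.83%. Among constant regions 1220 (2.09%) had the first and 1438 the second. All 4 H3K27ac lists had a peak at 624 gained regions (5.58%), against 15.1% of constant and 12.7% of all FOXL2 regions. No list had one at 9583 gained regions (85.8%), against 70.6% of constant and 76.2% of all. Most gained FOXL2 peaks therefore had no H3K27ac peak over them after 1 h of activin, and the same held for constant and for all FOXL2 regions. Of the merged H3K27ac regions as a whole, 5.84% had peaks in both activin lists and neither vehicle list and 6.79% had the reverse.

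The acetylation difference was large where SMAD2/3 was also present. At the 349 gained regions with SMAD2/3 in both activin lists, 39.8% and 35.8% had an H3K27ac peak in the vehicle lists. In the activin lists the shares were 73.9% and 66.2%, on average 32.2 percentage points more. At the 10573 gained regions without any SMAD2/3 peak the vehicle lists gave 6.31% and 6.29% and the activin lists 9.35% and 7.43%. Constant regions with SMAD2/3 went from 68.2% and 66.4% to 86.6% and 80.5%. Constant regions without it went from 18.3% and 17.7% to 16.8% and 14.1%. In both gained groups and in constant regions with SMAD2/3 the activin libraries lay above the vehicle libraries, and in constant regions without SMAD2/3 they lay below. The difference between these groups was not tested.

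**Figure D3:**
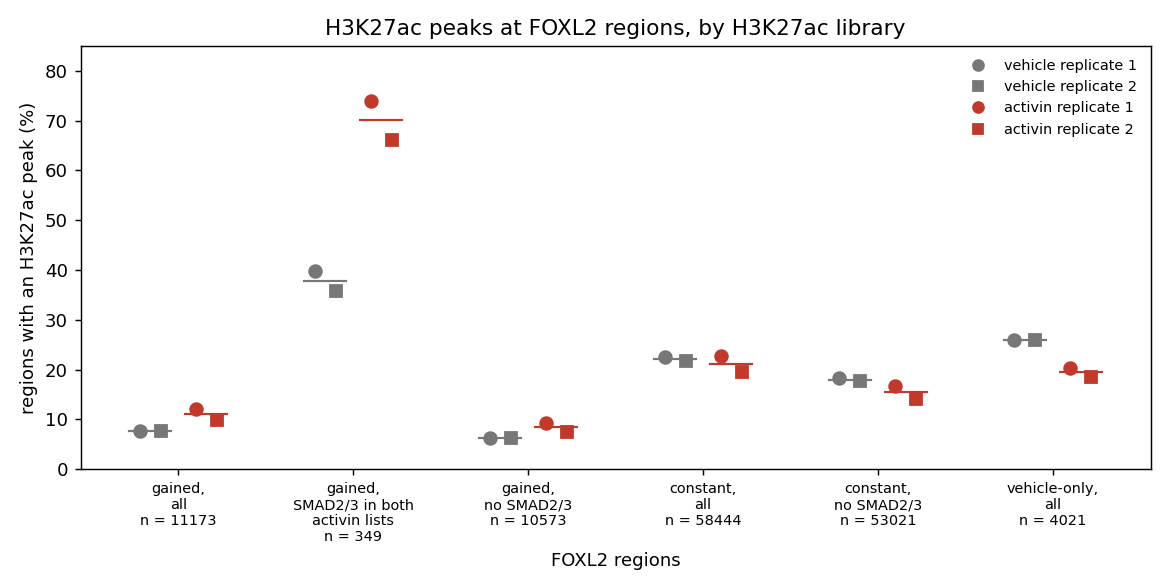
H3K27ac at FOXL2 regions in each H3K27ac library. The y axis is the percentage of regions with an H3K27ac peak, points are single libraries (grey vehicle, red activin, circles replicate 1, squares replicate 2) and short lines are means of 2. Gained regions with SMAD2/3 go from 39.8% and 35.8% to 73.9% and 66.2%, while constant regions without SMAD2/3 lie lower with activin.

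Where H3K27ac was present in every library, its rank within the list was compared. At the 624 gained regions with an H3K27ac peak in all 4 lists, the median H3K27ac rank was 79.9 and 79.8 in the vehicle lists and 89.1 and 86.2 in the activin lists. The difference of 7.81 rank points had an exact two-sided permutation p of 0.333. It was 3.37 when only H3K27ac peaks with a −log10 q of at least 5 were kept, 5.04 when 50% of the region had to be covered, 5.17 at the FOXL2 summit base and 4.96 at gained regions without any SMAD2/3 peak. Median H3K27ac fold enrichment was 4.79, 4.58, 5.61 and 5.34 in the same order. Both activin ranks exceeded both vehicle ranks at 319 of the 624 (51.1%), against 30.5% of all FOXL2 regions with H3K27ac in all 4 lists, and the reverse held at 149 (23.9%), against 39.3% of all. At constant regions the medians were 79.9, 79.7, 81.8 and 77.4. With SMAD2/3 in both activin lists, 110 gained regions had vehicle medians of 75.3 and 74.6 and activin medians of 94.4 and 91.7, and 97 of them (88.2%) were higher in both activin libraries, against 62.5% of all FOXL2 regions with SMAD2/3 in both activin lists. The 2215 constant regions with SMAD2/3 and H3K27ac in all 4 lists had vehicle medians of 80.8 and 79.5 and activin medians of 89.5 and 87.0, and 61.4% of them were higher in both activin libraries. Without any SMAD2/3 peak, 467 gained regions had 81.0, 80.9, 87.6 and 84.2.

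**Figure D4:**
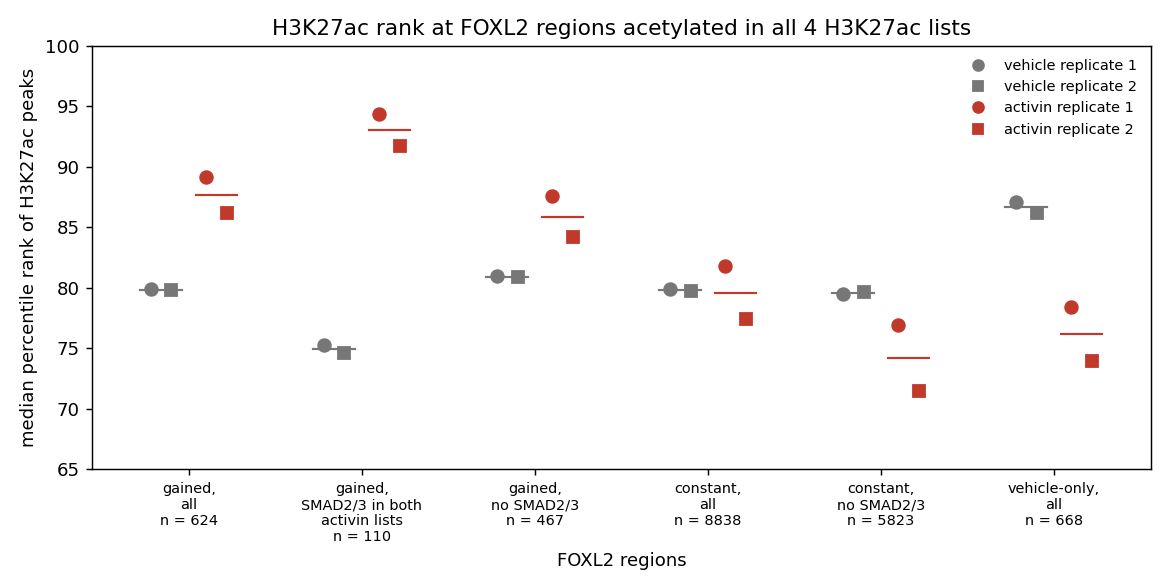
Median percentile rank of the H3K27ac peak at FOXL2 regions with H3K27ac in all 4 lists. The y axis runs from 65 to 100 and does not start at 0, points are single H3K27ac libraries and short lines are means of 2. Activin libraries lie above vehicle libraries at gained regions (89.1 and 86.2 against 79.9 and 79.8) and below them at vehicle-only regions.

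Among gained regions, H3K27ac shares were higher above FOXL2 rank 50. The mean share with an H3K27ac peak went from 7.60% with vehicle to 9.51% with activin in gained regions ranked under 25. It went from 6.68% to 9.91% between ranks 25 and 50 and from 9.59% to 16.1% between 50 and 75. In the 159 ranked above 75 it went from 14.5% to 30.8%. Median width rose from 258 bp in the lowest class to 406 bp in the highest, and its part in the overlap was not tested. In constant regions the lowest and highest classes went from 23.9% to 20.0% and from 24.8% to 25.7%. The combined pattern, a region new in all 3 lists, was rare. New SMAD2/3 regions overlapped 344 gained regions (3.08%), near the 3.23% of all FOXL2 regions and under the 5.37% of constant ones. New H3K27ac regions overlapped 234 (2.09%), near the 2.06% of constant regions, against 1.42% of all. Both overlapped 63 of the 11173 gained regions and 452 of the 58444 constant regions, so the combined pattern was rarer in the gained class. Among regions at new SMAD2/3 regions the order was the reverse. There it was 18.3% of the 344 gained and 14.4% of the 3140 constant regions. The share over all FOXL2 regions is not given, and neither difference was tested.

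The region upstream of Esr2, the gene of estrogen receptor β, had the strongest SMAD2/3 peak among the named regions of that combined pattern. It lies at −13.2 kb from the start, with negative values upstream, at chr12:76190284-76190678, between genes. Its FOXL2 fold was 17.5 in activin replicate 1 and 20.2 in activin replicate 2, and its SMAD2/3 fold 26.4 and 28.2. Its H3K27ac fold was 6.43 and 6.73, with no peak of any antibody in the vehicle lists. H3K27ac folds here and below are the largest among the H3K27ac peaks that overlap a region. Such a broad peak can reach beyond the region. An intron of Kansl1, which encodes a subunit of a histone acetyltransferase complex, held another, at chr11:104356830-104357325. There the FOXL2 fold was 16.0 and 15.9, the SMAD2/3 fold 5.22 and 8.26 and the H3K27ac fold 4.20 and 3.93, again in activin lists only. In an intron of Arhgap44, a GTPase-activating protein, at chr11:65118823-65119336, FOXL2 reached 22.5 and 21.0 and SMAD2/3 5.87 and 5.81, and an H3K27ac peak in activin replicate 1 alone lay over the region, at 3.17. The merged H3K27ac region around it also held a peak of activin replicate 2. These examples were picked by rank among the gained regions, so their FOXL2 values had to be high.

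Some other strong gained regions already carried H3K27ac before activin. In an intron of Get4, which takes part in the insertion of tail-anchored membrane proteins, at chr5:139256564-139256999, FOXL2 fold was 18.9 and 20.2 and SMAD2/3 fold 12.1 and 13.6. H3K27ac there was called in vehicle replicate 2 at 3.61 and in the activin lists at 6.75 and 6.17. In an intron of Shank2, a postsynaptic scaffold protein, at chr7:144046650-144047039, H3K27ac fold went from 4.67 and 4.63 to 6.06 and 6.01, with SMAD2/3 at 11.1 and 9.58 with activin. An intron of Akap8l, an A-kinase anchoring protein relative, at chr17:32347002-32347559, had no SMAD2/3 peak, and its H3K27ac fold was 4.93 and 4.74 in vehicle and 6.19 and 5.96 in activin libraries. A region at −8.05 kb from the start of Abhd2 (negative means upstream) had H3K27ac over it in the activin lists only, at 4.15 and 4.30, and no SMAD2/3 peak. The merged H3K27ac region around it also held a peak of 1 vehicle list. The strong region in an intron of Rabgap1l, at chr1:160395426-160396202, had FOXL2 folds of 24.8 and 21.3 and no peak of either other antibody in any list. Gained regions of like FOXL2 rank thus differed in whether they carried SMAD2/3 or H3K27ac.

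A few further named regions touch signalling genes. An exon of Rheb, the small GTPase that activates mTORC1, held a gained region at chr5:24840450-24840854, with SMAD2/3 folds of 4.71 and 4.54 and H3K27ac folds of 3.84 and 4.19, all with activin only over the region itself. The merged H3K27ac region around it held peaks of both vehicle lists. An intron of Spred1, an inhibitor of Ras and MAP kinase signalling, held 1 with H3K27ac in the activin lists at the low folds of 2.55 and 2.78. Within 1 kb of a protein-coding start the strongest were at Mfsd1, Elac1, Fbxo11, Gm15401 and Il25. That at Gm15401, at chr6:72629257-72629692 in the Tcf7l1 gene, which encodes a transcription factor of the Wnt pathway, had SMAD2/3 folds of 12.5 and 11.2 with activin. H3K27ac fold there went from 3.21 and 2.97 to 6.79 and 5.07.

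Around Fshb, the gained share was near that of the genome. Within 500 kb of its start lay 92 FOXL2 regions, of which 57 were constant, 8 were gained (8.70%, near the 8.95% of all regions) and 2 were vehicle-only. On the side upstream of the gene, gained regions lay at −62.6, −113.5, −129.6, −137.1 and −330.4 kb. On the other side they lay at 61.4, 415.2 and 468.1 kb. The strongest, at −113.5 kb (chr2:107172864-107173363), had a FOXL2 fold of 12.3 and 10.0 and a mean rank of 76.1. That at −62.6 kb (chr2:107122120-107122462) had low FOXL2 folds of 2.53 and 4.14 and an H3K27ac peak in the activin lists only, at 5.78 and 4.76, while the merged H3K27ac region around it also held peaks of both vehicle lists. None of the 8 had a SMAD2/3 peak in any list, and the other 7 had no H3K27ac peak in any list. Of all 11173 gained regions, 10573 had no SMAD2/3 peak in any list, and 85.8% had no H3K27ac peak in any. With 8 regions, these counts are thus uninformative about the locus.

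By nearest gene, none of 8 gene lists had a gained share above that of all FOXL2 regions by more than counting error. Only SMAD proteins and feedback inhibitors, at 9.50%, lay above the 8.95% of all regions at all. The interval of the axon guidance genes lay just below it. The lists were chosen for gonadotropes and activin, and each share is of the list's own FOXL2 regions. Among gonadotrope genes and lineage factors, 7 of 139 regions were gained, 5.04% (2.46 to 10.0). They lay nearest Foxl2, Hesx1, Isl1, Msx1, Nr0b1 and Pitx1. Hesx1 encodes a homeobox repressor of early pituitary development, and its region at chr14:27005937-27006570 had SMAD2/3 folds of 13.7 and 15.7 with activin. H3K27ac fold at Hesx1 went from 3.77 and 3.49 to 6.26 and 6.77. Nr0b1 encodes DAX1, an orphan nuclear receptor that represses NR5A1, and its region, 8.25 kb from the start, had FOXL2 folds of 9.58 and 10.0 and no SMAD2/3 or H3K27ac peak.

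Ligands, receptors and antagonists of the TGF-beta family had 11 gained of 179 regions, 6.15%, nearest Acvr2a, Bmp15, Bmpr1b, Bmpr2, Gdf9 and Grem1. None of the 11 had SMAD2/3 in both activin lists and 4 lay at an activin H3K27ac region, against 3.14% of all gained regions at activin SMAD2/3 regions and 11.4% at activin H3K27ac regions. At Grem1, a secreted BMP antagonist, H3K27ac was called with activin only, at 3.30 and 3.84, and at Bmpr1b, a type I BMP receptor, it was 3.56 and 3.38 in vehicle and 3.92 and 3.98 in activin libraries. SMAD proteins and feedback inhibitors had 17 of 179, 9.50%, and none had SMAD2/3 in both activin lists or lay at an activin H3K27ac region. So few regions and such low shares over all gained regions make these counts of 0 uninformative about the list. The gained regions of that list were nearest Cited2, Ldlrad4, Nedd4l, Ppm1a, Skil, Smad2, Smad7, Smurf2 and Trim33. Smad7, the inhibitory SMAD, had FOXL2 folds of 9.87 and 7.54 at its gained region, and Trim33, a ubiquitin ligase that binds SMADs, had 8.31 and 8.91. Classic SMAD targets and regulators of epithelial-mesenchymal transition had 1 of 48, 2.08% (0.369 to 10.9).

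Forkhead genes had 13 gained of 166 regions (7.83%), with 6 nearest Foxp2 and 2 nearest Foxp1. The strongest Foxp1 region, at chr6:99052600-99052929, had FOXL2 folds of 8.06 and 9.13 and SMAD2/3 folds of 6.22 and 4.59 with activin, with no H3K27ac peak. AP-1, Egr and Nr4a genes, which respond early to many stimuli, had 4 of 54 (7.41%), nearest Batf, Egr2 and Jdp2. Voltage-gated channels had 23 of 283 (8.13%), among them strong regions in introns of Cacna2d4 (FOXL2 fold 14.1 and 13.8) and Cacnb2 (12.2 and 10.8), both auxiliary subunits of calcium channels. Axon guidance genes had 25 of 412, 6.07% (4.14 to 8.80), and the upper end of this interval lay just under the 8.95% of all regions. Of them, the strongest lay in introns of Slit3, a secreted guidance ligand, and Epha5, an ephrin receptor.

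**Figure D5:**
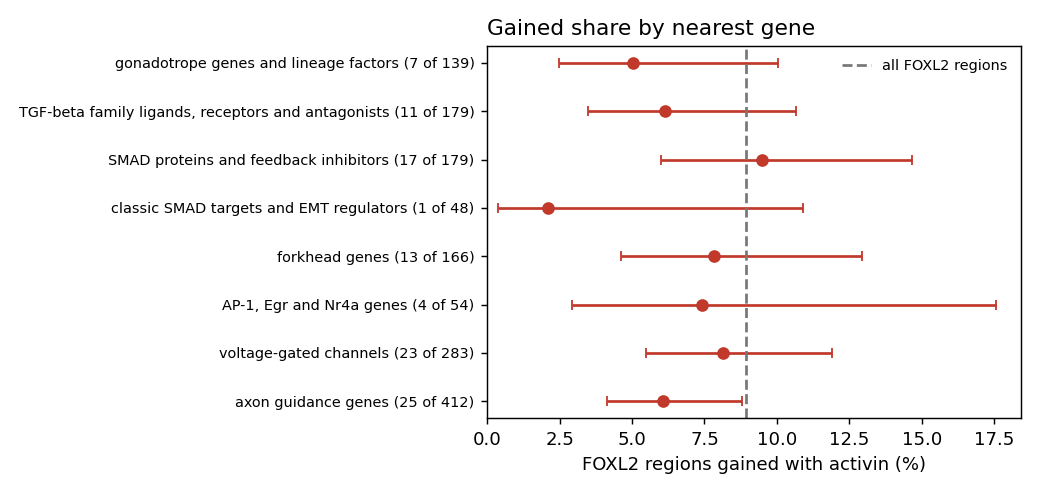
Share of FOXL2 regions that were gained, by nearest gene, for 8 gene lists. The x axis is the percentage of a list's FOXL2 regions, bars are 95% Wilson intervals, and the dashed line marks the 8.95% of all FOXL2 regions. The intervals of 7 lists include the line and that of the axon guidance genes ends at 8.80%.

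Counted by the gene body they lie in, gained regions were spread over many genes. At least 10 gained regions lay in 42 of 3294 protein-coding genes with any, a description chosen after the values were seen. Most were very long genes rich in FOXL2 regions. Cntnap2, a neuronal adhesion protein, had 28 of 221, Ptprd, a receptor phosphatase, 24 of 242, and Dmd, the dystrophin gene, 22 of 218. Higher shares were found in Lyst, the lysosomal trafficking regulator, with 10 of 24 (41.7%), and Dnajc1 with 11 of 38 (28.9%). Pcsk5, a proprotein convertase, had 10 of 44 (22.7%), and Gnaq, the Gαq subunit, 11 of 54 (20.4%). Over all FOXL2 regions the share was 8.95%. Genes were listed for holding at least 10 gained regions, which favours high shares. Some still lay below 8.95%, such as Rbfox1 with 10 of 181 (5.52%) and Cntn4 with 15 of 219 (6.85%). In all, 56.5% of gained regions lay in a protein-coding gene body, against 62.3% of constant and 59.3% of all FOXL2 regions.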

How the data were processed

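Each of 12 libraries has a peak list and a table that annotates its peaks. A Protein-A control sample is described and was not analysed here, and no control background can therefore be printed. Bowtie2, MACS2 and HOMER, and the builds GRCm38 and mm10, are named in the submitters' processing notes, without their versions or settings. Peaks were called library by library, per the peak names in the files. The authors deposited for each peak a fold enrichment (a linear ratio), the −log10 of its p and q values, and a score that follows the −log10 q. The lists for SMAD2/3 and FOXL2 are narrow peaks and end near a q of 0.05, and those for H3K27ac are broad peaks. Reads were single-end and 50 bp long, per the labels' protocols. The depth reached is unknown, and the labels name no batch.

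Coordinates are those of the files, counted from 1. Regions were merged and overlapped (minimum 1 bp) in Python 3.11.15 with pandas 2.3.3 and numpy 2.4.6. Fold and −log10 q served to rank or filter within a list. Folds of different libraries are also given side by side, as a description with no test. Their background and the depth are unknown, so they may not share a scale. Promoter windows come from RefSeq (GRCm38.p6), and of 9394 protein-coding gene starts compared with the deposited distances, 59.0% lay within 100 bp. Treatments were compared over 4 libraries by exact permutation of the 6 possible labellings, two-sided, whose smallest p is 0.333. Shares carry Wilson intervals at 95%. The code was tested on simulated lists and recovered the known regions. The paired alternative takes equal replicate numbers, which carry the same library letter, as pairs, though the labels do not state a pairing.

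Named regions follow a rule on rank: the strongest of all, and those at new SMAD2/3 and H3K27ac regions, near starts and per gene list, and all near Fshb. Gene names are of the nearest start in the deposited annotation or, for introns, the RefSeq gene at that place. The regions and lists were chosen with earlier results of these data known. A few of the regions this rule names are not reported here.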

Additional observations from a re-analysis of the deposited data

Results flagged for a closer look

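H3K27ac differed in opposite directions at gained and vehicle-only FOXL2 regions. Both activin libraries lay above both vehicle libraries at gained regions and below them at vehicle-only regions. The share of regions with an H3K27ac peak was 3.41 percentage points higher with activin at gained regions and differed by −6.52 points at vehicle-only regions. The median H3K27ac rank of regions acetylated in all 4 lists differed by 7.81 and by −10.5 rank points. The difference between the classes was not tested, and both were measured in the same libraries.

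The same opposition appeared among FOXL2 regions without any SMAD2/3 peak. The H3K27ac share differed by 2.09 points at gained and by −2.55 points at constant regions, and the median rank by 4.96 and −5.40 rank points. This difference was not tested either.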

How the results depend on the processing

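Of 116 alternative values, 85 were counted as unchanged, 31 as moved and 0 as reversed. The 85 are no measure of stability. They include all 56 alternatives of the tested differences, whose sizes varied as given next. They also include 7479 gained regions for activin peaks with a −log10 q of at least 5, against 11173. All 56 alternatives of the 4 tested differences kept their direction, with ranges of 1.65 to 4.52 points for H3K27ac overlap, 2.55 to 5.12 for the gained minus constant gap, 3.37 to 9.30 for H3K27ac rank and 3.41 to 5.44 for SMAD2/3 overlap. With the replicate number as a block, the values were 3.41, 4.41, 7.81 and 4.22 with an exact permutation p of 0.5, the smallest 2 pairs can give, so the paired test can end no call. The share of gained regions at activin SMAD2/3 regions (3.14%) and at activin H3K27ac regions (11.4%) became 4.06% and 12.2% for activin peaks with a −log10 q of at least 5, 3.96% and 12.2% with FOXL2 lists cut to equal length, and 2.72% and 6.95% for SMAD2/3 and H3K27ac peaks with a −log10 q of at least 5. The H3K27ac share was 9.76% with 50% of the region covered and 9.68% at the summit base. Without single FOXL2 replicates the number of gained regions ran from 14391 to 20892, the SMAD2/3 share from 2.02% to 3.31% and the H3K27ac share from 9.59% to 14.2%. The cause of these moves was not tested. Counting at the summit base, leaving out regions with SMAD2/3 and cutting the H3K27ac lists to equal length were chosen after seeing the data. The search for forkhead words around distal summits, and its alternative window, were not run. With 2 libraries a treatment and unknown depth, a region without a called peak may still be bound.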
